A study of Homo sapiens with 12 samples.

Results

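The layout of H3K9me2 islands was compared between MDA-MB-231 cells given a nitric oxide donor and untreated cells. MDA-MB-231 is an established human line of triple negative breast cancer. Members were all intervals in the 4 H3K9me2 library lists, 52174 islands out of 381217 intervals in all 8 library lists of the series, which also hold acetylation of the same lysine. The untreated group was 2 biological replicates with no donor, with 12573 islands in replicate 1 and 14457 in replicate 2. The treated group was 2 biological replicates exposed for 24 h to 500 µM DETA/NO, with 14554 islands in replicate 1 and 10590 in replicate 2. DETA/NO is a compound that sheds nitric oxide slowly in culture medium. The labels give overnight serum starvation and the same Abcam antibody to H3K9me2 for all 4 libraries, and the line is the only cell model used. The comparison asked how nitric oxide changed the layout of the mark, with untreated cells as the control.

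H3K9me2 is dimethylation of lysine 9 on the tail of histone H3. It is laid down mainly by the paired methyltransferases G9a and GLP (EHMT2 and EHMT1) and removed by demethylases of the KDM3 and KDM4 families, iron-dependent enzymes whose active site nitric oxide can bind. In the nucleus the mark lies over silent chromatin, often in broad domains at the nuclear periphery, so its layout is described by how wide the domains are, how far apart they lie and where they end. In the deposited lists each domain appears as an island, a run of 500 bp windows. An island can become wider by moving an edge or by fusing with a neighbour, and it can break into pieces. Positions count from 1 on the build hg19. Read counts are not part of the lists, so how deeply any island was sequenced is unknown. With 2 libraries against 2, the exact two-sided permutation test has 3 splits and cannot give a p below 0.33, so no comparison of single values could pass 0.05. No label ties equal replicate numbers to a shared batch or day.

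Islands were wider after treatment over the middle of the size range and no wider among the longest domains. The median island was 12000 and 11000 bp wide in untreated replicates 1 and 2, and 13500 and 14000 bp in their treated counterparts. Both treated values lay above both untreated ones. The means were 11500 ± 707 bp (SD, n = 2) untreated and 13750 ± 354 bp (SD, n = 2) treated, a difference of 2250 bp, several times the SD within either group (exact permutation p = 0.33, the smallest possible). The length-weighted median, the width at or above which islands hold 50% of the covered length, was 22000 and 21000 bp untreated and 23000 and 25500 bp treated (exact permutation p = 0.33). The groups stood apart at the lower quartile, with 9000 and 8000 bp untreated against 9500 and 10000 bp treated, and at the upper quartile, with 18000 and 17000 bp against 21000 bp in both treated libraries. They overlapped at the narrow and wide ends, the 5th, 10th, 95th and 99th percentiles.

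The number of islands and the length they covered did not separate the conditions. Islands covered 235.2 and 254.3 Mb in the untreated libraries and 284.9 and 226.3 Mb in the treated ones, so treated replicate 1 covered the most and treated replicate 2 the least. The treated libraries used fewer islands for each covered megabase, 51.1 and 46.8 against 53.5 and 56.8 untreated (exact permutation p = 0.33). Treated coverage was thus divided into islands that were wider on average. Fewer islands for each covered megabase is the same measure as a larger mean width, and does not mean fewer islands in number. The covered total varied more between the treated replicates than between the conditions.

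The shift in width was a shift between size classes below 50 kb. Islands of 5 to 10 kb made up 34.9% ± 3.52 (SD, n = 2) of untreated islands and 23.0% ± 3.33 (SD, n = 2) of treated ones. Islands of 20 to 50 kb made up 14.7% ± 1.44 (SD, n = 2) and 21.5% ± 0.960 (SD, n = 2). Both differences exceeded the SD in either group. Domains of at least 100 kb were similar in number: 214 and 230 untreated, 219 and 218 treated. They held 14.5% and 15.3% of the covered length in untreated and 11.9% and 15.5% in treated libraries, with the treated values on both sides of the untreated ones.

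**Figure D1:**
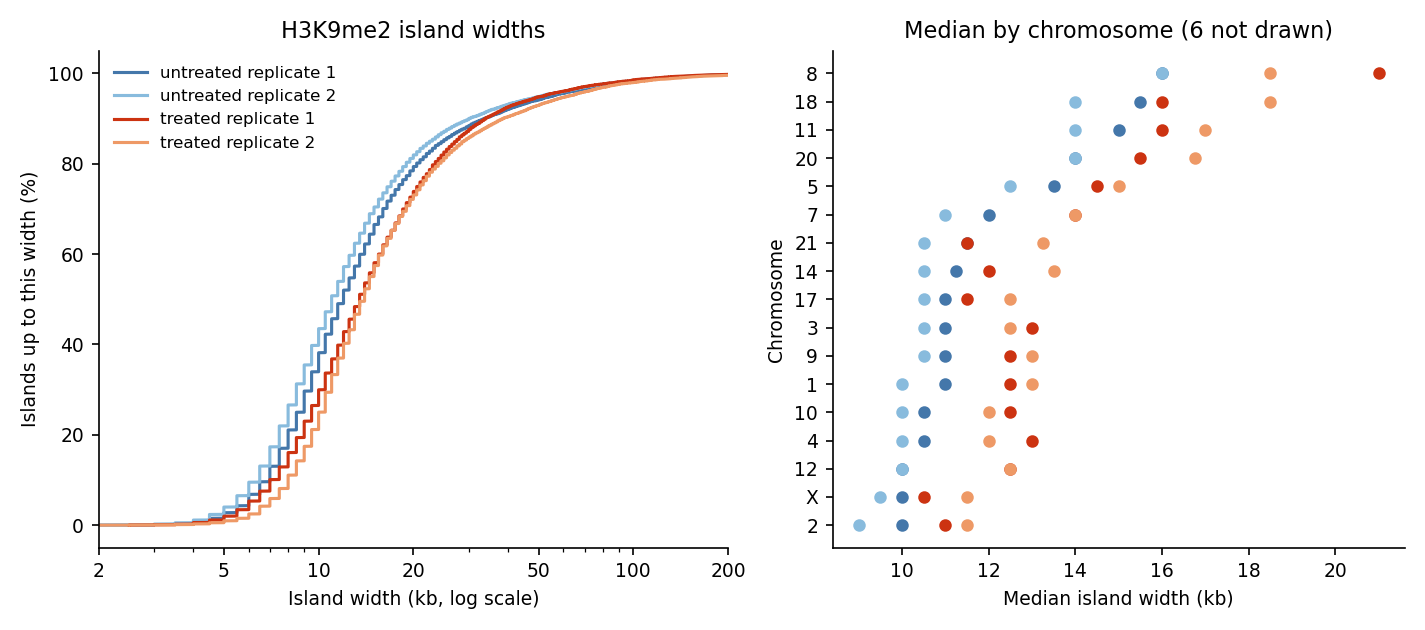
Left, cumulative share of H3K9me2 islands (%) against island width (kb, log scale), 1 line per library; right, median island width (kb) on each chromosome with at least 50 islands in every library, 1 point per library, with chromosome 6 not drawn because its medians lie above 45 kb and with coinciding points hidden behind each other. The treated lines run to the right of the untreated ones from the lower to the upper quartile, and both treated medians exceed both untreated ones on 17 of 18 chromosomes, counting chromosome 6.

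The wider median was spread over the genome. Of 18 chromosomes with at least 50 islands in every library, both treated medians were wider than both untreated ones on 17, none had both narrower, and 1, chromosome 21, overlapped. Differences of the condition means ran from 1250 to 8625 bp. Chromosome 12 was typical, with medians of 10000 bp in both untreated and 12500 bp in both treated libraries. On chromosome 8 the untreated medians were both 16000 bp, and the treated ones 21000 and 18500 bp. Chromosome 6 had by far the widest islands, 45500 and 46000 bp untreated against 62500 and 46250 bp treated, and its difference of 8625 bp came almost wholly from treated replicate 1. The chromosomes share their libraries and are not replicates, so this count describes how widely the difference extends and is no test of it.

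Islands that recurred between libraries were wider than solitary ones, and the treated excess was present in each class. Islands that met no island in any of the other 3 libraries had a median of 9250 ± 354 bp (SD, n = 2) untreated and 10750 ± 354 bp (SD, n = 2) treated. Islands met in all of the other 3 had medians of 18000 and 19500 bp without treatment and 22500 and 20000 bp with it. The groups did not overlap in any of the 4 classes of recurrence (exact permutation p = 0.33 in each). Solitary islands made up 15.9% and 18.9% of the untreated lists and 29.0% and 14.6% of the treated ones, so treated replicate 1 held the most islands found in it alone.

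The authors' scores differed beside the widths. All 4 lists hold islands scored 5 or more by the authors, and island names carry running numbers that skip islands not in the list. The share of numbers present was 61.7% and 64.5% in the untreated and 54.6% and 59.9% in the treated libraries. The median authors' score was 9.59 and 9.84 untreated and 8.32 and 9.25 treated, and what a score means in reads may differ between libraries. Its part in the width difference was not tested. The difference in median width was 2250 bp when all lists were cut to the same number of highest-scoring islands, and 3000 bp when each was cut at its own median score.

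Gaps, the uncalled stretches between neighbouring islands of a library, were longer after treatment at the short and middle lengths. The median gap measured 21000 and 19500 bp without treatment and 22500 and 25500 bp with it, or 20250 ± 1061 bp against 24000 ± 2121 bp (SD, n = 2 each, exact permutation p = 0.33). Gaps of up to 10 kb made up 35.1% and 36.0% of all gaps untreated and 32.6% and 32.3% treated. That is a difference of -3.11 percentage points between means, against SDs of 0.647 and 0.234 (exact permutation p = 0.33). The shortest gap was 2000 bp in every list, and gaps of exactly that length did not separate the conditions, at 10.2% and 9.87% untreated and 9.09% and 9.99% treated. The share of gaps up to 50 kb overlapped between conditions, with 69.7% and 73.0% untreated against 70.5% and 66.0% treated. Gaps that span a skipped island number were 25.3% and 23.7% untreated and 35.7% and 27.4% treated, so a larger share of treated gaps lay over an island absent from the list. Their part in the gap lengths was not tested.

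**Figure D2:**
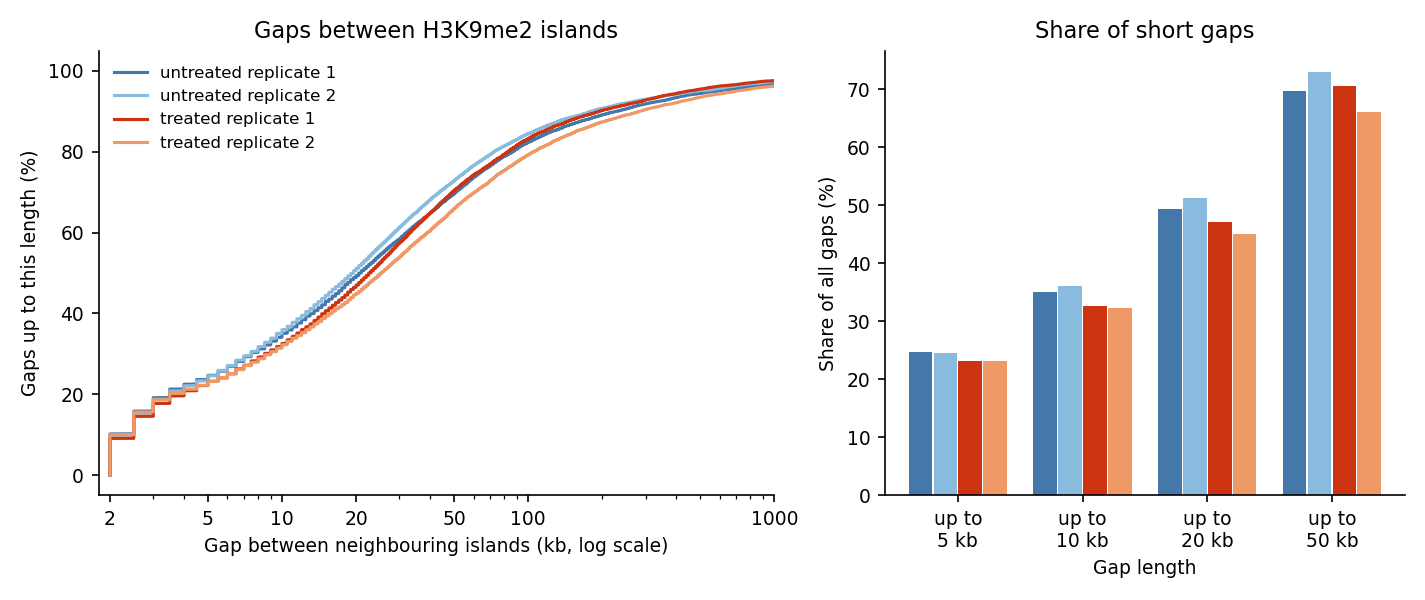
Left, cumulative share of gaps (%) against gap length (kb, log scale), 1 line per H3K9me2 library; right, share of all gaps (%) up to 5, 10, 20 and 50 kb, 1 bar per library in the same colours. Both treated bars are below both untreated bars up to 5, 10 and 20 kb, and at 50 kb the bar of treated replicate 1 (70.5%) is between the untreated ones (69.7% and 73.0%).

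Fusion was measured for each pair of libraries as the share of islands that lie, with at least 1 neighbour, under a single island of the other library. Between untreated replicate 1 and treated replicate 1, 23.2% of untreated islands were joined in the treated library and 15.6% of treated islands in the untreated one. Against treated replicate 2 the same untreated library gave 18.9% and 18.8%. For untreated replicate 2 the shares were 21.5% and 15.6% with treated replicate 1, and 17.2% and 20.9% with treated replicate 2. Treated replicate 1 joined untreated islands more than the reverse, and for treated replicate 2 the shares were nearly equal in one pair and the other way in the other. Replicates of one condition were joined as much: 21.6% of islands of untreated replicate 1 in replicate 2 and 17.7% the other way, and 15.9% and 22.4% between treated replicates 1 and 2. The mean balance over the 4 pairs across conditions was 2.47 percentage points towards fusion in treated cells (exact permutation p = 0.667), with pairs from -3.77 to 7.59, and replicate pairs at 3.94 and -6.51. Without treated replicate 1 the balance was -1.81. The mean balance was smaller in size than either single replicate balance, but it averages pairs of opposite sign. The mean of the 2 replicate pairs, replicate 2 set against replicate 1, was -1.28. The pair of untreated replicate 1 with treated replicate 1, at 7.59, exceeded both replicate balances in size.

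Matched islands, those that meet only each other in a pair of libraries, were wider in the treated library in all 4 pairs across conditions. The mean log2 ratio of treated to untreated width was 0.23 and 0.12 for untreated replicate 1 with treated replicates 1 and 2, and 0.24 and 0.12 for untreated replicate 2. The ratio was 0.00 to 2 decimals between the untreated replicates and -0.09 for treated replicate 2 over treated replicate 1. All 4 ratios across conditions exceeded both replicate ratios in size, with a mean of 0.18 (exact permutation p = 0.33). The treated island was the wider one in 57.3% and 53.2% of the 4041 and 4022 matched pairs of untreated replicate 1, and in 59.1% and 53.1% of the 4836 and 4033 of untreated replicate 2. Both edges were shifted in one direction, left or right, in 47.0% to 52.9% of matched pairs across conditions and 50.6% and 52.0% between replicates. This was the most common class in every pair, but it pools both directions and cannot show how islands widened. With untreated replicates 1 and 2, islands of treated replicate 1 extended at both ends in 22.07% and 23.53% of pairs. They retracted at both ends in 11.09% and 11.02%. For treated replicate 2 the shares were 16.86% and 17.03% extended, and 11.96% and 12.62% retracted. Between replicates, replicate 2 against replicate 1, 15.41% extended and 13.66% retracted untreated, and 14.87% and 18.3% treated.

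Single edges were no better placed between replicates than between conditions. The median absolute distance between matched edges was 3000 to 4000 bp in the 4 pairs across conditions, 3000 bp between the untreated replicates and 4500 bp between the treated ones. The mean across conditions minus the mean within was -250 bp (exact permutation p = 1), and it was 250 bp without treated replicate 1 and 750 bp without treated replicate 2. Edges at the same grid position made up 7.45% to 13.4% of edges across conditions, and 11.1% and 7.82% between replicates. A shift of a single boundary by a few kilobases was thus within what replicates of one condition showed.

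**Figure D3:**
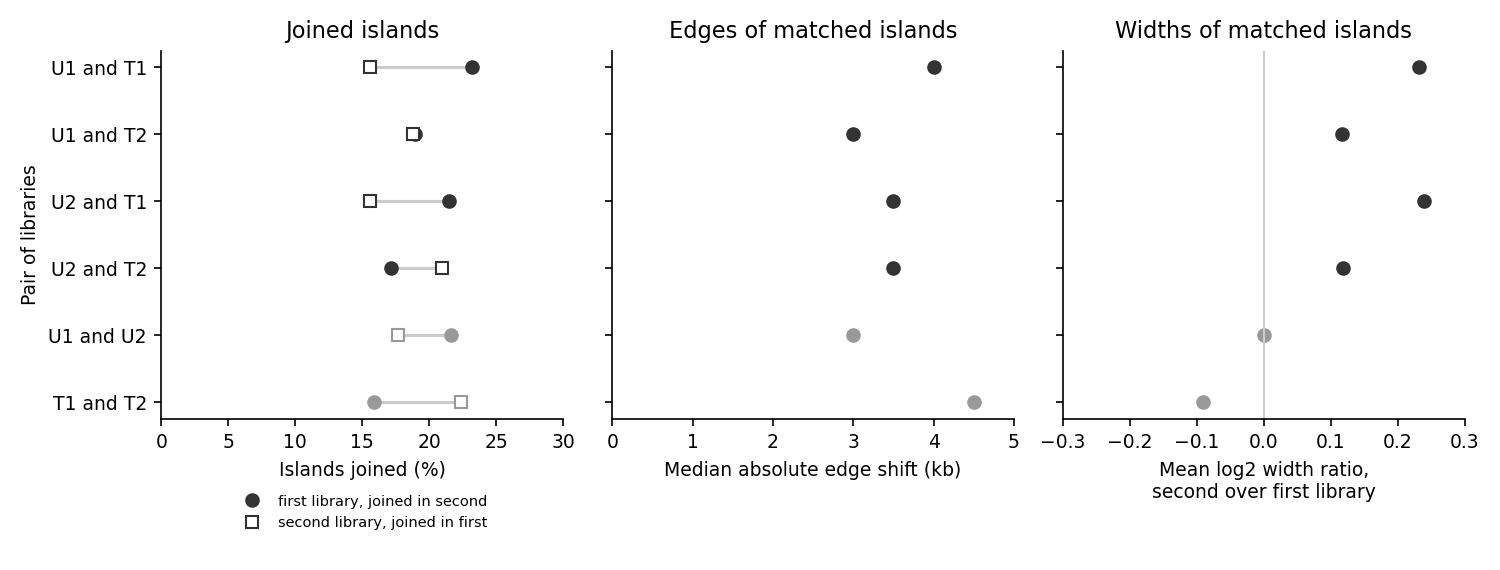
Each line is a pair of H3K9me2 libraries (U, untreated; T, treated; with the replicate number), black for pairs across conditions and grey for replicates; the panels give the share of islands joined under 1 island of the other library (%), the median absolute distance between edges of matched islands (kb), and the mean log2 ratio of matched widths. Edge distances across conditions lie within those of the replicates. Joined shares run slightly beyond theirs in the pairs with treated replicate 1 (up to 23.2% and down to 15.6%). All 4 width ratios across conditions, 0.12 to 0.24, exceed in size the replicate values of 0.00 and -0.09, whose sign depends on which replicate comes first.

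Chains of overlapping islands were merged over the 4 libraries into 21149 loci, of which 2945 held islands of every library. At these shared loci the division of a stretch into islands can be compared. Each link of a chain needs only 1 bp of overlap, so the libraries at a locus need not cover the same bases. Together they were covered to 148.2 and 152.5 Mb in the untreated and 151.2 and 148.5 Mb in the treated libraries, equal within the spread (150.3 ± 3.06 and 149.9 ± 1.94 Mb, SD, n = 2, exact permutation p = 1). They were divided into 5639 and 5610 islands in the untreated and 5089 and 5223 in the treated libraries. The means of 5625 ± 20.5 and 5156 ± 94.8 islands (SD, n = 2) differed by more than the spread of either group (exact permutation p = 0.33). Median widths there were 15000 and 15500 bp untreated and 19000 and 17000 bp treated. At loci shared by all 4 libraries, lengths that differed by less than the spread were thus covered by fewer, wider islands after treatment. The difference in islands, -468.5 over all lists, was -247.5 without treated replicate 1. With lists cut to the same number of highest-scoring islands it was -216.5, and the groups then overlapped, with 4278 and 3993 islands untreated and 3632 and 4206 treated.

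Counted locus by locus, 201 shared loci (6.83% of those compared) had fewer pieces in both treated libraries than in either untreated one, and 92 (3.12%) had more. At 116 of the 2945 loci both treated libraries had 1 island where both untreated ones had 2 or more, and the reverse held at 55 of them. Most shared loci did neither. Replicates gave the same number of pieces at 1553 of the 2945 loci in the untreated and 1671 in the treated libraries. Leaving out 1 library sets a lone library against 2, and each has at least 1 piece at a shared locus. A lone library can then exceed the other 2 more readily than fall below them. The counts that follow therefore cannot show whether the excess of loci with fewer pieces needed both treated libraries. Without treated replicate 1, 307 loci had fewer pieces and 337 had more, and without treated replicate 2 the counts were 403 and 381. Without untreated replicate 1 or 2 they were 616 and 188, or 537 and 193.

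Gaps that neither replicate of a condition called were then looked up in the other condition. The untreated libraries had 6031 common gaps, stretches where a gap of up to 50 kb in one library overlaps such a gap in the other, and both treated libraries filled 292 of them completely (4.84%). The treated libraries had 3915 such gaps, and both untreated libraries covered 264 of them (6.74%). Changes in the 2 directions were similar in number, and 1945 of the untreated and 1302 of the treated common gaps were uncalled in all 4 libraries. Filled and opened gaps were short, with a median of 2000 bp in each direction, the shortest gap in the lists. Replicates filled each other's gaps as readily: 19.1% of the gaps of untreated replicate 1 up to 50 kb were filled in untreated replicate 2, against 21.2% in treated replicate 1 and 15.9% in treated replicate 2. For treated replicate 2, 21.8% were filled in treated replicate 1, against 16.9% and 19.7% in untreated replicates 1 and 2.

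Chromosome 5 held the largest number of changed gaps in both directions, 67 filled and 54 opened, followed by chromosome 11 with 43 and 45. The same chromosomes had many common gaps, 904 and 782 in untreated cells. Chromosome 18 changed often for its number of gaps, with 13 of 120 filled and 14 of 91 opened. Acetylation of the same residue was looked up in these gaps. An H3K9ac peak of both untreated libraries lay in 1 of the 292 filled gaps, against 69 of the 1945 that stayed uncalled, and one of both treated libraries lay in 1 of the 264 opened gaps, against 41 of 1302. The gaps that changed were shorter, and over gaps of up to 5 kb the counts were 1 of 263 against 9 of 1095, and 1 of 236 against 16 of 748. A peak of at least 1 library of the condition lay in 34 of the 263 filled gaps of up to 5 kb (12.9%) against 158 of the 1095 (14.4%), and in 6 of the 236 opened ones (2.54%) against 33 of the 748 (4.41%). No test was made of these counts.

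The widest filled gap was chr7:141657001-141668500, 11500 bp long. Treated replicates 1 and 2 each had 1 island across it, 52500 and 52000 bp wide, which ended at the same base on the right and 500 bp apart on the left. In untreated replicate 1 the island to the left was 25500 bp and the gap 33000 bp, and in untreated replicate 2 islands of 22000 and 7000 bp flanked a gap of 11500 bp. Both treated libraries thus carried nearly the same single island over a stretch without a listed island in either untreated library. The untreated gaps there span 2 and 1 skipped island numbers in replicates 1 and 2, so islands absent from the lists may lie in them. An H3K9ac peak of at least 1 untreated library also lay in this gap. The second and the third, chr5:166933001-166943500 and chr6:75539001-75549500, were 10500 bp each. The treated islands over the second were 18000 and 28500 bp wide. Those over the third were 65500 and 12500 bp, and the narrower of these reached little beyond the gap itself. At chr11:56115001-56124500 treated islands of 22500 and 41000 bp took the place of untreated islands of 8500 and 8000 bp in replicate 1 and 10500 and 13500 bp in replicate 2. The others of the 8 widest, on chromosomes 4, 7 and 11, were 9000 to 10000 bp long.

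The widest opened gap was chr18:35449501-35469000, 19500 bp long. Untreated replicates 1 and 2 each covered it with 1 island, 73500 and 80500 bp wide. Treated replicate 1 had islands of 18500 and 5000 bp with 33000 bp between them, and treated replicate 2 had islands of 5500 and 32000 bp on either side of the 19500 bp. Next was chr8:137542501-137561000, where untreated islands of 44000 and 67500 bp gave way to gaps of 46000 and 18500 bp. At chr5:22370501-22384500 the untreated islands were 44000 and 53500 bp wide and started at the same base, and the treated gaps were 24500 and 17500 bp. At chr7:153908001-153921000, islands of 125500 and 117500 bp were divided by treated gaps of 40000 and 13000 bp. Islands absent from the lists may lie in some of these gaps. In treated replicates 1 and 2 they span 0 and 1 skipped island numbers on chromosome 18, and 1 and 0 on chromosome 8. Those at chr5:22370501-22384500 span 2 and 1, and those on chromosome 7 span 1 and 1. The 8 widest opened gaps were 11000 to 19500 bp, longer than the 8 widest filled ones, and lay on chromosomes 5, 7, 8, 10, 11 and 18. Gene positions on hg19 were not used here, so no gene is named at these places.

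**Figure D4:**
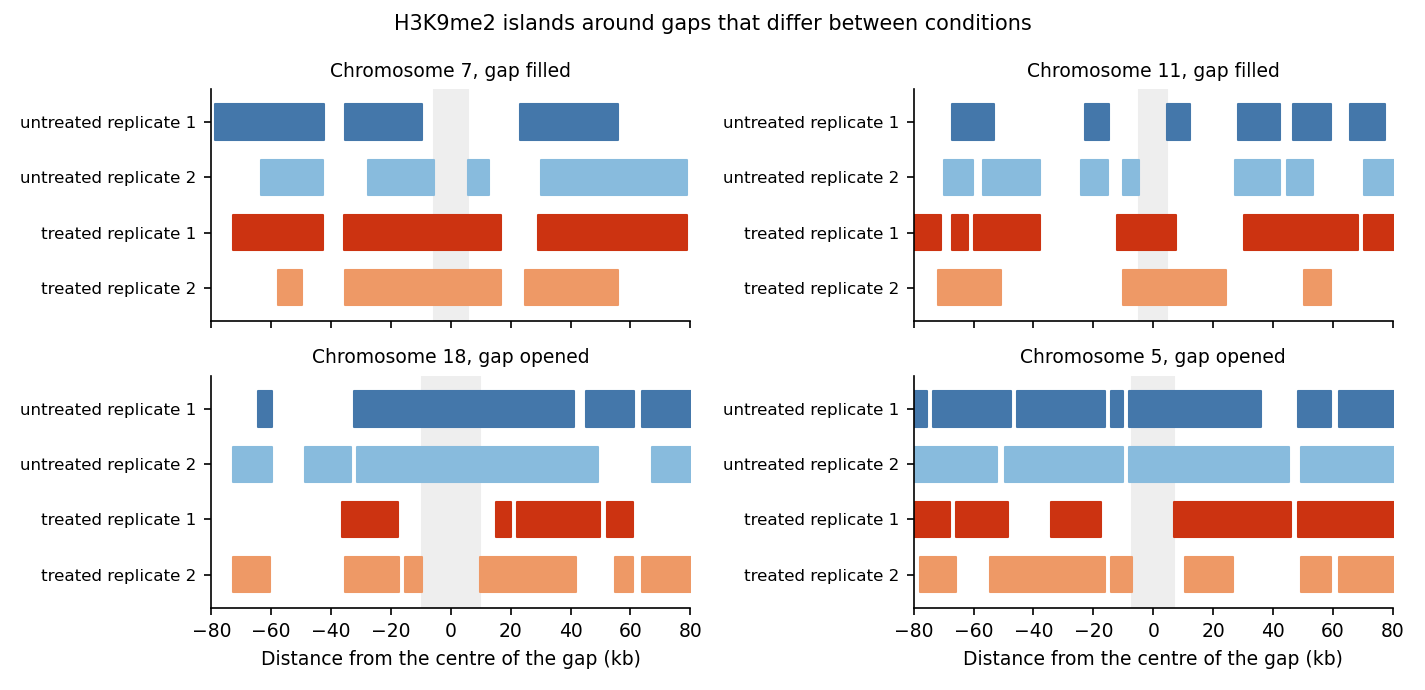
H3K9me2 islands (bars) of the 4 libraries around the widest and the seventh widest filled gap (top) and the widest and the fourth widest opened gap (bottom), against distance from the centre of the gap (kb), with the gap in grey; bars that reach the frame go on beyond it. Single treated islands cross the grey stretch in the top panels, and single untreated islands, 73500 and 80500 bp wide on chromosome 18, cross it in the bottom ones.

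At 842 loci every library had exactly 1 island, 5.79% to 7.95% of a library's islands, and there the widths could be tested locus by locus. limma on log2 width found 0 loci wider (0%) and 0 narrower (0%) below an adjusted p of 0.05, with 40 loci at an unadjusted p under 0.05. The lowest adjusted p was 0.862 (limma, Benjamini-Hochberg). Median widths were 13500 bp in both untreated and 15250 and 14000 bp in the treated libraries. The treated mean was the wider one at 59.1% of loci, with a median signed log2 difference of 0.11. The median absolute log2 difference was 0.45 between the untreated and 0.50 between the treated replicates. These describe the scatter of single loci, where signs do not cancel, and are not on the same footing as the signed median. Quantile normalization, which makes the spread of widths over these loci the same in all 4 libraries, gave 48.5% of loci and a median of -0.01. The treated widths lay wholly above the untreated ones at 168 loci (20%) and wholly below at 87 (10.3%). With 2 libraries against 2, widths also separate at many loci without any effect of treatment, so these counts call no locus. Of the 1684 edges, 257 (15.3%) lay further out in both treated libraries and 168 (9.98%) further in. Both edges lay further out at 10 of the 842 loci and further in at 4 of them, so few of the loci with wider islands had gained at both ends. Edges that stayed within 1 kb in all 4 libraries made up 7.78%.

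**Figure D5:**
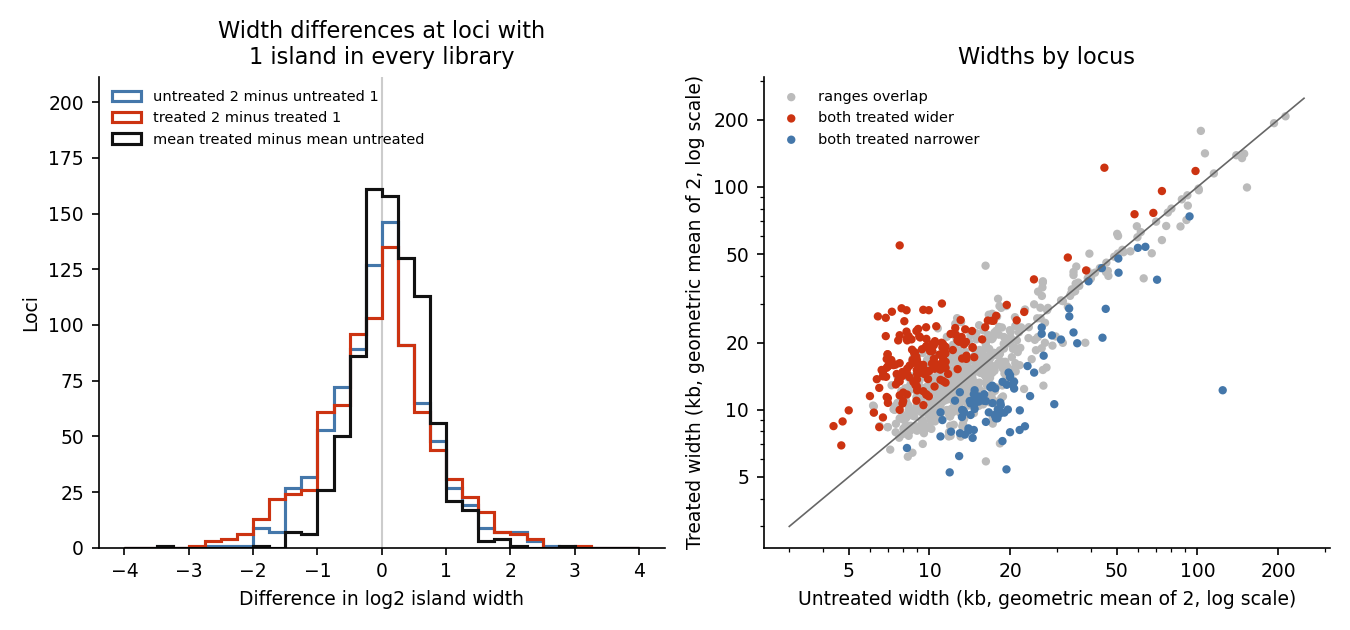
Left, number of loci by difference in log2 island width, between replicates (blue, untreated; red, treated) and between condition means (black), for the 842 loci with 1 island in every library; right, treated against untreated width at each locus (kb, geometric mean of 2 libraries, log scales), coloured where the 2 treated widths lie wholly above (168) or below (87) the untreated ones. The black curve is shifted slightly to the right of 0, by a median of 0.11, and is narrower than the curves between replicates, as a difference between means of 2 must tend to be.

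The loci with the largest differences, named in order of their mean log2 difference among those whose groups did not overlap, varied in how well replicates matched. At chr14:57585501-57694000 islands of 10000 and 6000 bp in the untreated libraries stood against 65000 and 46000 bp in the treated ones, a log2 difference of 2.82 ± 0.39 (SE). The treated replicate 1 island there began inside that of treated replicate 2 and met neither untreated island directly. At chr5:122657501-122701000 the widths were 9000 and 7500 bp untreated and 29000 and 27000 bp treated, with the treated left ends 11000 bp and the right ends 13000 bp apart. At chr5:45801001-45832500 they were 9000 and 11000 bp against 28500 and 27500 bp, with both treated islands starting at least 16500 bp further left and all 4 right ends within 4500 bp of each other. At chr3:192961001-192991500 untreated islands of 10000 and 6500 bp lay apart and treated islands of 25500 and 24500 bp spanned the space between them. At chr11:81324001-81360500 untreated islands of 7500 and 5500 bp, which did not overlap each other, stood against 20000 and 34500 bp, over one of the filled gaps above. There and at chr3:192961001-192991500 the untreated islands belong to a single locus only because the wider treated islands joined them. The treated excess at such places follows in part from how loci were formed. None of the 20 named loci passed the test (limma adjusted p = 0.862 for each).

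The largest difference in either direction was a narrowing at chr6:21435501-21587000. Islands of 151500 and 102000 bp untreated stood against 25000 and 6000 bp treated, a log2 difference of -3.34 ± 0.77 (SE). Both treated islands lay inside both untreated ones. At chr20:45041501-45086500 untreated islands of 44500 and 44000 bp, with the same left end, stood against 24000 bp at the left in treated replicate 1 and 18500 bp at the right in treated replicate 2. The treated libraries thus kept different parts of one domain there. At chr11:83699001-83722000 the same was seen on a smaller scale, with 22000 and 21500 bp untreated, 11000 bp at the right and 9000 bp at the left treated. At chr1:230083001-230106500 islands of 23500 and 16000 bp stood against 4500 and 6500 bp, with the right ends of all 4 within 1500 bp, so the difference was at the left end alone.

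Islands were also counted in bins of 1 Mb. A count can rise where the mark is divided into more pieces or where more of it is called, and alone does not separate these. limma on log2(count + 1) found more islands in 0 of 1733 bins (0%) and fewer in 0 (0%) below an adjusted p of 0.05, with 112 at an unadjusted p under 0.05. The lowest adjusted p was 0.289 (limma, Benjamini-Hochberg). The count lay wholly above the untreated libraries in 125 bins (7.21%) and wholly below in 236 (13.6%). The 6 bins with the largest excess were on chromosomes 3, 4 and 7. At chr4:100000001-101000000, 5 and 6 untreated islands stood against 19 and 12 treated ones, and covered length went with them, from 61.0 and 58.5 kb to 306 and 140.5 kb. At chr4:106000001-107000000 the counts were 2 and 2 against 15 and 8. At chr4:156000001-157000000, 13 and 9 stood against 21 and 17. Treated replicate 1 had more islands than treated replicate 2 in all 6 bins.

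Among bins with fewer islands, chr3:6000001-7000000 had 36 and 35 untreated and 13 and 20 treated islands, and the covered length was 447.5 and 429.5 kb against 180.5 and 308.5 kb. At chr14:79000001-80000000 the counts were 23 and 22 against 8 and 10, with 273.5 and 260.5 kb covered against 75.5 and 142 kb, the bin with the lowest adjusted p. In both of these, fewer islands came with less covered length. At chr5:29000001-30000000 the counts were 44 and 37 against 18 and 35, and covered length was 799 and 895 kb against 890.5 and 686.5 kb. There treated replicate 1 covered nearly as much as untreated replicate 2 with 18 islands in place of 37, at a median width of 44250 bp, and treated replicate 2 did not. In 5 of the 6 named bins with fewer islands both treated libraries also covered less than either untreated one, and this bin was the exception.

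The widest islands of all 4 libraries lay on chromosome 6. The widest, chr6:39505501-40928000 in untreated replicate 2, was 1422500 bp, and its counterparts were 1410500 bp in untreated replicate 1, 1009500 bp in treated replicate 1 and 1239500 bp in treated replicate 2. The left ends lay within 18000 bp of each other, and the treated islands ended further left on the right side. The authors' scores of these islands were 22.8 and 8.55 in untreated replicates 1 and 2, and 111 and 132 in treated replicates 1 and 2. Over the stretch of the widest, treated replicate 1 had 3 islands covering 85.3%, and treated replicate 2 had 1 covering 87.1%. At chr6:51094001-51531500 each untreated library had a single island, of 437500 and 437000 bp, where each treated library had 2, covering 99.3% and 99.4% of the same stretch. At chr6:25516001-25893000 each untreated library had 1 island, and the treated ones had 3 and 2, covering 93.8% and 99.5%. These untreated islands were taken because they were widest, so narrower counterparts elsewhere follow in part from the choice. The widest treated islands were divided more in untreated replicate 1 than in untreated replicate 2. For 4 of the 5 widest of treated replicate 1, untreated replicate 2 had a single island over the whole stretch. The exception was chr6:66330501-66682000, a single island of 351500 bp in treated replicate 1. It was in 10 and 2 pieces in the untreated libraries and in 4 in treated replicate 2. Untreated replicate 1 had 2 pieces at chr6:50229001-50591500, chr6:69625001-69964500 and chr6:23365501-23701000, and a single island only at the widest. The widest of treated replicate 2 met 1 island in each untreated library. In untreated replicates 1 and 2, its chr6:49968001-50447500 was in 3 and 2 pieces, and its chr6:50449501-50860500 in 2 and 2. Its chr6:23362001-23661000 was in 2 and 1. A further island of treated replicate 2, chr6:41042001-41335500, was 293500 bp wide with an authors' score of 5.85, and no other library had an island in that stretch.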

How the data were processed

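H3K9me2 chromatin immunoprecipitation was sequenced from 2 untreated and 2 treated cultures, per the labels. Tools named without their roles in the submitters' processing notes are SICER, MACS2, Picard, BWA 0.7.5 and Trimmomatic 0.32, and the build is hg19; for caller settings and read depth, no value was found in the sources used. The authors deposited 1 list per library, not pooled, with a start, an end and a score per island. Island scores are the authors' own, at least 5, and were used only to rank or filter within a list. The other deposited columns, starts and ends, were used as positions; starts lie on a 500 bp grid, and ends name the last base, so 1 bp was added. Deposited H3K9ac peak positions were used only to look up peaks in gaps. How the score filter affected the lists is unknown, since islands below it were not analysed here.

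Islands met when they shared at least 1 bp. Values per library were compared by exact two-sided permutation, and values per locus or bin with limma 3.58.1 in R 4.3.3 (mean-variance trend, pseudocount 1 for counts, Benjamini-Hochberg adjustment at 0.05). Other steps used Python 3.11.15, pandas 2.3.3 and numpy 2.4.6, and the interval code and the limma step were tested on simulated data. Named places are the 10 loci with the largest width difference in each direction and the 6 bins with the largest difference in count, both among those whose groups do not overlap, the 8 widest filled and opened gaps, and the 5 widest islands of each library; a selection of each is printed. Members and lists were chosen with earlier results of these data known. Planned counts over gene lists were not made, since they need gene positions on hg19. Alternatives left out each library, thinned lists by score, joined islands across short gaps, asked for more overlap or dropped chromosomes 2 and 4.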

Additional observations from a re-analysis of the deposited data

How the results depend on the processing

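Median width, length-weighted median, median gap, the share of gaps up to 10 kb and the widening of matched islands kept their direction under every alternative run. Their size varied with the score. The difference in median gap, 3750 bp over all islands, was 11000 bp above the list's median score and 21250 bp at a score of at least 10; that in median width was 4500 bp at that score minimum, and that in length-weighted median 1250 bp with equal lists and 6000 bp at that minimum. Leaving out 1 library, treated minus untreated ran from 1750 to 2750 bp for the median width, 1500 to 4000 bp for the length-weighted median and 2250 to 5250 bp for the median gap. Without 1 library the difference ran from -18.5 to 40.1 Mb in covered length, from -2925 to 1039 in island number, from -3.04 to 0.551 percentage points in the share of length in islands of at least 100 kb, from -1.81 to 6.76 in fusion balance, from -1000 to 750 bp in edge shift, from -505.5 to -247.5 in islands at shared loci and from -0.424 to 5.92 Mb in the covered length of shared loci. That covered length was 0.154 Mb with equal lists and -2.90 Mb above the median score. Filled gaps were 653 to 1138 without 1 library, 99 with islands at or above the list's median score, 119 with islands joined across gaps up to 5 kb and 113 with each library's gap limited to 10 kb; opened gaps were 601 to 749, 92, 165 and 74. Shared loci with fewer pieces were 307 to 616 without 1 library, 75 above the median score and 106 with equal lists. Those with more were 188 to 381 without 1 library, 30 above the median score and 72 with equal lists. Bins called higher were 0 to 135 and lower 0 to 41 without 1 library. Without treated replicate 1 limma called 49 higher and 39 lower, and without treated replicate 2 it called 135 and 41. The lone treated library is then assumed to vary like the untreated ones, and every other fit called 0. Only chr4:106000001-107000000 among the named bins and loci then passed, at an adjusted p of 0.0327 (limma) without treated replicate 2. Blocking on replicate numbers, limma called 0 loci and 0 bins in either direction, with lowest adjusted p of 0.888 and 0.848. Same-numbered libraries did not deviate together (correlation of the replicate differences -0.08 for log2 width, -0.28 for log2 count), and a crossed block, chosen after seeing the data, also called 0. The score minimum of 10, the counts of pieces and all values at shared loci under other settings were likewise added after seeing the data. With 2 libraries a group, unknown depth and a score filter of unknown effect, differences within the replicate spread were not detectable here, and the part of depth and of the filter was not tested.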
